A study of Mus musculus with 2 samples.

Results

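Proteasome genes were compared between 2 populations of natural killer (NK) cells sorted from mouse liver; the mice were wild type, of strain B6 and naive. All probe sets annotated to exactly 1 gene symbol beginning with Psma, Psmb, Psmc, Psmd, Psme or Psmg were taken, and each gene was read from its brightest probe set (highest mean log2 value of the arrays). This gave 48 genes of 18194 named genes on the array. The choice of members used the level averaged over both arrays and not the difference between them. The DX5- cells carried NK1.1 and lacked CD3 and the antigen bound by the antibody DX5, which is the integrin chain CD49b. The DX5+ cells carried NK1.1 and that antigen and lacked CD3. The labels name no treatment of mice or cells, and the sources used here do not give the number, age or sex of the mice. Each population was measured on 1 Affymetrix mouse expression array, so no difference below has a spread between samples or a test, and every fold describes these arrays.

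The proteasome is the main protease of the cytosol and nucleus. Its barrel-shaped core particle has outer rings of alpha subunits and inner rings of beta subunits, of which 3 cut peptide bonds: Psmb6 (beta1), Psmb7 (beta2) and Psmb5 (beta5). A regulatory particle of ATPases (Psmc genes) and other subunits (Psmd genes) binds ubiquitin-tagged proteins, unfolds them and feeds them into the core. In lymphocytes and in cells exposed to interferon gamma, Psmb9, Psmb10 and Psmb8 can take the places of the 3 constitutive catalytic subunits and form the immunoproteasome, whose peptides are favoured for display on MHC class I. Psme1 and Psme2, the chains of the interferon-inducible activator PA28, cap the same core particle.

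The 4 genes of the immunoproteasome set with a probe set of their own were all higher in DX5- cells, by 1.20-fold to 1.59-fold and 2 of them by less than 0.32 on the log2 scale. Of all detected genes 47.5% were higher. Of 31 detected constitutive subunits 24 lay within 0.32 of equal. At 0.32 or above lay 0 of them, against 22.1% of all detected genes. The remaining 7 (22.6%, against 26.4% of all detected genes) were lower by more, the furthest of them Psmd13 at 1.62-fold. Psmb10 was the furthest apart of the 4, and Psmb8, Psme1 and Psmb9 followed. The median log2 ratio (DX5- minus DX5+) was 0.33 for these 4 genes, -0.047 for the constitutive subunits and -0.016 for all 10640 detected genes. Outside that set, Psmg2, an assembly chaperone of the core particle, was 2.27-fold higher in DX5- cells and was the 1 member past 2-fold; averaged over its probe sets its log2 ratio was 0.93, short of 2-fold. Genes are not replicates, so these counts carry no test.

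RefSeq promoter windows (assembly GRCm38.p6) were available for 40 of the members. Those of Psmb8, Psmb9, Psmb10 and Psme1 are shown with those of the constitutive catalytic genes Psmb5 and Psmb6. This lets the upstream letters of the genes that read higher be set beside those of constitutive genes. Psmb7, the counterpart of Psmb10, had no window, and the windows of Psme2 were searched but are not shown. Each line gives the 250 bases before the start site, 5′ to 3′ along the gene's own strand. Capitals mark matches, on either strand, to the interferon-stimulated response element (ISRE) core, which is GAAA, any 2 bases and GAAA again, to the gamma-activated site (GAS) TTCNNNGAA, the antioxidant response element TGACNNNGC or the GC box GGGCGG.
Psmb8, chr17:34197945-34198194, plus strand: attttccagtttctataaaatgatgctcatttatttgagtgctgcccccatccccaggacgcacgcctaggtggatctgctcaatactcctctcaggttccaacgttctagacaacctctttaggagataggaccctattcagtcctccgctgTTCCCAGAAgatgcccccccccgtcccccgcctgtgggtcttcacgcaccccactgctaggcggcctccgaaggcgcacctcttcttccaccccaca
Psmb9, chr17:34187331-34187580, minus strand: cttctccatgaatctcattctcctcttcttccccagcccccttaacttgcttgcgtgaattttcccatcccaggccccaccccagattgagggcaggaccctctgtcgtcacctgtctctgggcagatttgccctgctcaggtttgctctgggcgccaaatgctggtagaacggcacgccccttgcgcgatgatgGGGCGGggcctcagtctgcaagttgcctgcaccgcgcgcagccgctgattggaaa
Psmb10, chr8:105938393-105938642, minus strand: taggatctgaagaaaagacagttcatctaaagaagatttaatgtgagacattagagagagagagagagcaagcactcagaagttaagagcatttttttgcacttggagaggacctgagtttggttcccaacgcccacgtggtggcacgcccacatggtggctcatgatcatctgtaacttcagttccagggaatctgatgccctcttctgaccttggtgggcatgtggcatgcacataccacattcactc
Psme1, chr14:55578244-55578493, plus strand: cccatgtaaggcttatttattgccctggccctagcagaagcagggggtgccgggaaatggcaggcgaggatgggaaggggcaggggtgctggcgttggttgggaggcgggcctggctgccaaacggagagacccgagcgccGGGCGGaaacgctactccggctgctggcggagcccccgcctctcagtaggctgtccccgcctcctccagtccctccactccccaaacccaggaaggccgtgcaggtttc
Psmb5, chr14:54617996-54618245, minus strand: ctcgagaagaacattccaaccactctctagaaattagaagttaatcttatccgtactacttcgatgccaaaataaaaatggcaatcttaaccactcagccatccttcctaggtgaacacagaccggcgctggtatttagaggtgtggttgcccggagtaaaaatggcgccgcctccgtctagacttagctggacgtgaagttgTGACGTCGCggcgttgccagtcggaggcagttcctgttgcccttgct
Psmb6, chr11:70525107-70525356, plus strand: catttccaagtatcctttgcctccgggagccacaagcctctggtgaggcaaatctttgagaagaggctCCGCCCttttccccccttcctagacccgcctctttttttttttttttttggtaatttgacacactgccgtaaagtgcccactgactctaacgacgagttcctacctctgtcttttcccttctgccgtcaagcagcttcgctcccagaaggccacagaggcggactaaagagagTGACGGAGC

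The 4 motifs were searched in windows of 300 bases, the 250 bases above and the next 50 after the start site. Psmb8 held a GAS match, ttcccagaa, from 97 to 89 bases before its start site. Psme1 held a GC box from 109 to 104 bases before the start site and an ISRE match, tttcgctttc, from 10 to 19 bases after it. Psmb9 held a GC box, and Psmb10 held none of the 4 motifs in this window. Psmb5 and Psmb6 each held an antioxidant response element, and Psmb6 also a GC box. Matches overlapped each other at 0 places in these windows. ISRE matches occurred in 1 of 6 windows of the immunoproteasome set (Psme2 included, with 2 windows), in 2 of 27 windows of constitutive subunits (Psmb3 and Psmd4) and in 3.44% of all 32851 promoter windows. GAS matches occurred in 1 of the 6 windows, in 1 of the 27 windows and in 8.30% of all windows. Antioxidant response elements occurred in 0 of the 6 windows, in 4 of the 27 and in 12.4% of all. GC boxes occurred in 4 of the 6 windows, in 15 of the 27 and in 35.7% of all. The windows of Psme2 overlap and hold the same GC boxes, so by gene it was 3 of 5 in the immunoproteasome set. By gene it was 15 of 25 for constitutive subunits and 10324 of 27025 for all genes with a window. A match is a description of these letters and shows no binding.

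Of the 48 genes, 46 exceeded the detection limit of each array (76.1 units for DX5- and 82.7 units for DX5+). Psma8, the alpha subunit of testis, read 17.2 in DX5- and 14 in DX5+ cells, and Psmb11, the catalytic subunit of the thymic cortex, read 14.2 and 15.7; both were below the limits and have no ratio. The plot of intensities shows the detected members to the right of the limits, Psmc3ip the nearest, with the points of both arrays close together for most genes. Of the 46 genes, 34 had a log2 ratio within 0.32 of 0 and 42 differed by less than 1.5-fold. Among all detected genes 22.1% lay at 0.32 or above and 26.4% at -0.32 or below. At 1.5-fold, 10.8% of all detected genes were higher and 14.1% lower. As deposited, 20 members were higher and 26 lower in DX5- cells, against 47.5% of all detected genes higher and 51.2% lower. With arrays scaled to the spike-in controls, which raised the median log2 ratio of all detected genes from -0.016 to 0.19, 34 were higher and 12 lower.

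**Figure D1:**
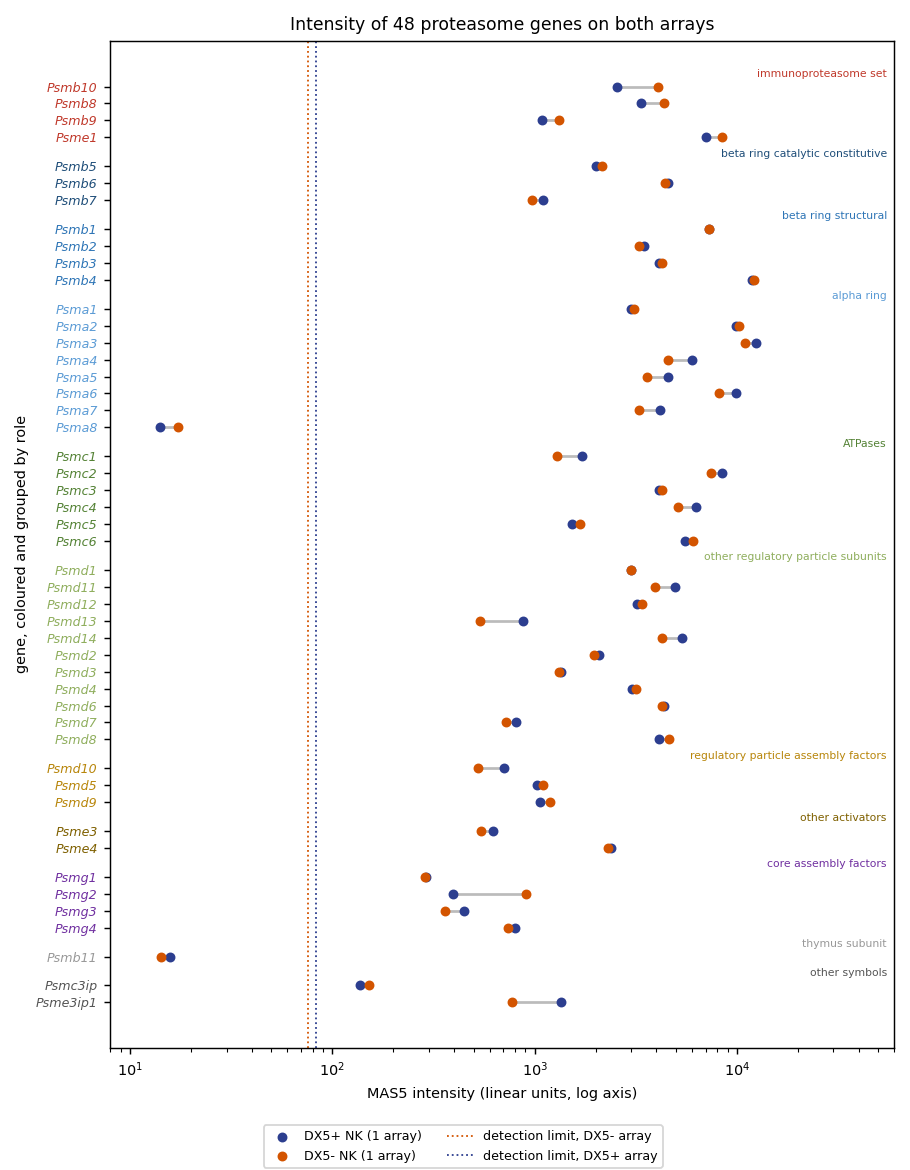
MAS5 intensity (log axis) of 48 proteasome genes, 1 point per array, grouped by role, with the detection limit of each array as a dotted line. Psma8 and Psmb11 lie below both limits, and the longest gaps between arrays are those of Psmg2, Psme3ip1, Psmd13 and Psmb10.

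At 1.5-fold, 2 members were higher in DX5- cells, Psmg2 and Psmb10 (4.35% of 46, against 10.8% of all detected genes), and 2 were lower, Psme3ip1 and Psmd13 (4.35%, against 14.1%). At 2-fold 1 member was higher (against 3.76%) and 0 were lower (against 5.66%). Members therefore passed these thresholds no more often than genes at large. The SD of the log2 ratio was 0.32 over the 46 members and 0.63 over all detected genes. Between probe sets of the same gene it was 0.23 for the 22 members with several probe sets above both limits. It was 0.23 for the brightest 20% of all genes with several and 0.34 for all such genes. Genes at large were thus noisier than the members, and the comparison above is not matched for intensity. The spread between probe sets covers probe noise only and leaves out differences between sorts, labellings and mice.

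Psmb10 encodes beta2i, the immunoproteasome counterpart of Psmb7. It read 4071 in DX5- and 2561 in DX5+ cells, a 1.59-fold difference (log2 ratio 0.67). The gene has 1 probe set, so no second reading was available. Psmb7 itself read 973 and 1102, slightly lower in DX5- cells. The log2 ratio of Psmb10 exceeded that of Psmb7 by 0.85, so the balance of the pair differed 1.80-fold between the arrays.

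Psmb8 encodes beta5i, the counterpart of Psmb5. It read 4365 in DX5- and 3359 in DX5+ cells, a 1.30-fold difference. A dimmer probe set of Psmb8 read 245 and 173, 1.42-fold higher in DX5- cells, so both readings of the gene lay on the same side. Psmb5 read 2154 and 2001, and the balance of the pair differed 1.21-fold.

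Psmb9 encodes beta1i, the counterpart of Psmb6. It read 1313 in DX5- and 1091 in DX5+ cells, a 1.20-fold difference from a single probe set. Psmb6 read 4430 and 4577, nearly equal, and the balance of the pair differed 1.24-fold. In all 3 pairs the immunoproteasome subunit stood higher relative to its counterpart in DX5- cells, by 0.27 to 0.85 on the log2 scale. Such a double ratio does not change when an array is scaled by 1 factor. The smaller 2 of these differences, 0.27 and 0.31, were close to the SD of 0.23 that a single log2 ratio had between probe sets of a gene. A difference of 2 such ratios carries the noise of both, so its own SD would be larger than 0.23.

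Psme1, the alpha chain of PA28, read 8473 in DX5- and 6998 in DX5+ cells, a 1.21-fold difference. Psme2, the beta chain, had no probe set of its own. The probe set listed for it is also listed for the near-identical copy Psme2b and names neither; it read 5351 in DX5- and 3751 in DX5+ cells (1.43-fold) and is left out of every count. The other activators lay on the lower side or near 0. Psme3, the PA28 gamma chain of the nucleus, read 546 and 622, and Psme4, the large single-chain activator PA200, read 2308 and 2372 on its brightest probe set, which can pick up several transcripts. Of the other 5 probe sets of Psme4 above both limits, 4 were higher in DX5- cells by 1.26-fold to 1.42-fold and the last was 1.07-fold lower, so the direction of Psme4 depends on the probe set.

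All 4 immunoproteasome genes had log2 ratios above those of all 31 detected constitutive subunits, the highest of which was 0.16 for Psmd8. The lowest of the 4 was 0.27 for Psmb9. Of all detected genes 32.9% lay above 0.16 in the same way, so a single value of this size is common on these arrays. Of the 4 genes 2 lay at a log2 ratio of 0.32 or above, as did 22.1% of all detected genes, and 0 lay at -0.32 or below, as did 26.4%. The median of the 4 exceeded that of the constitutive subunits by 0.37 on the log2 scale (1.30-fold).

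**Figure D2:**
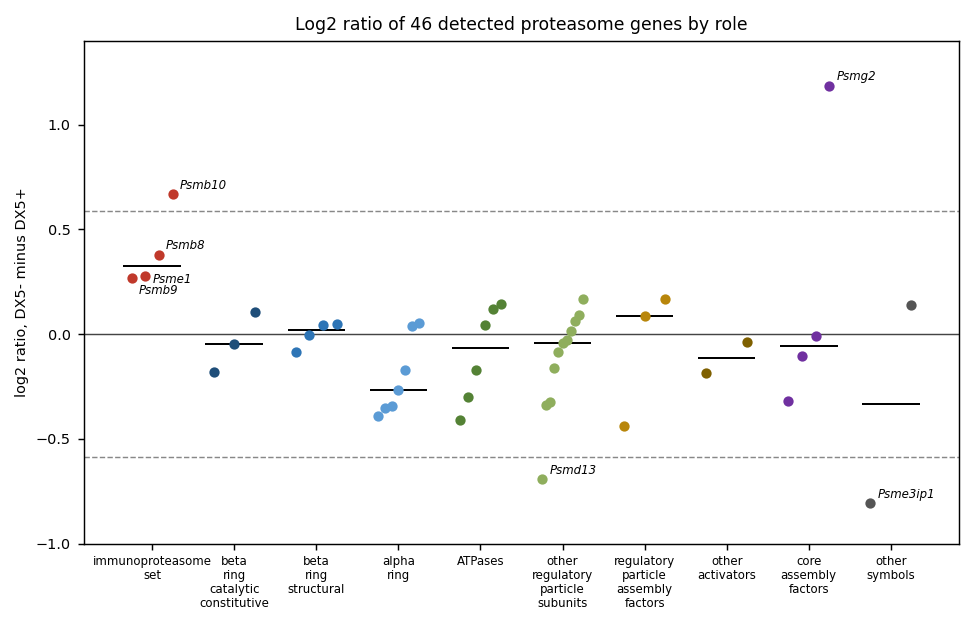
Log2 ratio (DX5- minus DX5+) of 46 detected proteasome genes, 1 point per gene, by role; black bars are group medians and dashed lines mark 1.5-fold. The 4 immunoproteasome genes sit between 0.27 and 0.67, above each of the 31 constitutive subunits, whose signs near 0 depend on the array scaling (median -0.047 as deposited, 0.17 with spike-in scaling).

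Among the alpha subunits, which form the gated outer rings of the core, 5 of 7 detected genes were lower in DX5- cells and 3 of them had a log2 ratio below -0.32, beside 51.2% and 26.4% of all detected genes. Psma4 read 4555 in DX5- and 5971 in DX5+ cells, the lowest ratio of the ring (1.31-fold). Psma5 read 3583 and 4578 and Psma7 3286 and 4165, 1.28-fold and 1.27-fold lower. Psma6 was 1.20-fold lower, and all 4 of its probe sets above both limits had negative log2 ratios. Psma1, the highest of the ring on its brightest probe set, read 3097 and 2986, but averaged over its probe sets its log2 ratio was -0.11. Psma2 read 10208 and 9933, nearly equal. The median log2 ratio of the ring was -0.27 as deposited and -0.051 with spike-in scaling, under which the median of all genes was 0.19.

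The structural beta subunits, which complete the inner rings without cutting peptides, were nearly equal. Psmb1, Psmb2, Psmb3 and Psmb4 had log2 ratios between -0.084 and 0.047. Psmb4 read 12175 in DX5- and 11807 in DX5+ cells, and Psmb2 read 3274 and 3470. Psmb1 read 7241 and 7258 on its brightest probe set. Its remaining probe sets were dim and opposed each other, one 1.68-fold higher at 147 against 87.5 units and one 1.28-fold lower at 128 against 163 units. The constitutive catalytic subunits Psmb5, Psmb6 and Psmb7 had log2 ratios between -0.18 and 0.11.

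The regulatory particle showed no common shift. The 6 ATPases, which form the ring that unfolds substrates, were split into 3 higher and 3 lower. Among all detected genes 47.5% were higher and 51.2% lower. Psmc6 was the highest (6097 in DX5- cells against 5517 in DX5+ cells), and all 3 of its probe sets above both limits were higher in DX5- cells. Psmc1 was the lowest, at 1288 against 1711 (1.33-fold). The ATPase median was -0.065 as deposited and 0.15 with spike-in scaling.

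Of the 11 other regulatory particle subunits 4 were higher and 7 lower in DX5- cells, beside 47.5% and 51.2% of all detected genes, with a median log2 ratio of -0.041 (0.18 with spike-in scaling). Psmd13, a subunit of the lid, read 539 in DX5- and 873 in DX5+ cells, a 1.62-fold difference and the 1 constitutive subunit past 1.5-fold. All 4 probe sets of Psmd13 were lower in DX5- cells, by 1.27-fold to 1.62-fold. Averaged over its probe sets the log2 ratio was -0.53, and with spike-in scaling it was -0.48, both short of 1.5-fold. Psmd14, the deubiquitinase of the lid, read 4260 against 5380, and Psmd11, a scaffold of the lid, 3936 against 4936, 1.26-fold and 1.254-fold lower. Psmd8 was the highest, at 4634 against 4133. Psmd4, a ubiquitin receptor, read 3178 against 3040 on its brightest probe set. Its dimmer probe sets opposed each other, 1.17-fold higher and 1.32-fold lower in DX5- cells. Psmd7, the partner of Psmd14, read 723 against 809, and a dimmer probe set of it was 1.73-fold lower.

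Over all 31 constitutive subunits, 12 were higher and 19 lower in DX5- cells as deposited, beside 47.5% and 51.2% of all detected genes. On the log2 scale 0 lay at 0.32 or above, against 22.1% of all detected genes, and 7 lay at -0.32 or below. The share of the latter, 22.6%, was near the 26.4% of all detected genes. Their log2 ratios had an SD of 0.21, against 0.23 between probe sets of a single member.

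Core assembly factors build the core particle without being part of it, and Psmg2 stood apart from the other 3. Psmg2, which pairs with Psmg1 to start the alpha ring, read 902 in DX5- and 397 in DX5+ cells. Its other probe set above both limits read 645 and 405, 1.59-fold higher in DX5- cells, so both readings lay on the same side. Another, below the limit on the DX5- array, read 49.4 and 88.7. Psmg1, its partner, read 288 and 290. Psmg4 read 740 and 795, and Psmg3, the partner of Psmg4, read 360 and 449 (1.247-fold lower in DX5- cells). The partners Psmg1 and Psmg2 were thus nearly equal and 2.27-fold apart respectively on these arrays.

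The chaperones of the regulatory particle were Psmd5, Psmd9 and Psmd10. Psmd10, called gankyrin, read 522 in DX5- and 709 in DX5+ cells, 1.36-fold lower. Psmd9 read 1188 against 1058 and Psmd5 1098 against 1033, log2 ratios of 0.17 and 0.088. The dimmer probe sets of Psmd9 opposed each other, 1.21-fold higher and 1.18-fold lower in DX5- cells. The rule also took a pair of genes named for their binding to subunits. Psme3ip1, which binds the PA28 gamma chain, read 774 in DX5- and 1356 in DX5+ cells, the lowest ratio of all members (1.75-fold lower). Psmc3ip, a factor of meiotic recombination, read 151 and 137, close to the limits.

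**Figure D3:**
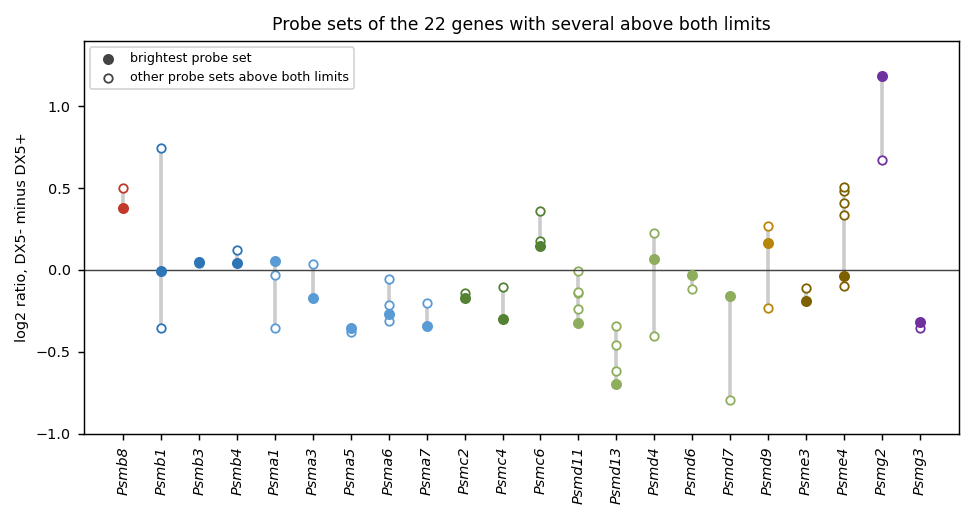
Log2 ratio (DX5- minus DX5+) of each probe set above both limits for the 22 members with several; filled points are the brightest probe set of a gene and open points the others. Both probe sets of Psmb8 and of Psmg2 lie above 0 and all 4 of Psmd13 below 0. Those of Psma1, Psma3, Psmb1, Psmd4, Psmd9 and Psme4 fall on both sides.

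In 16 of these 22 members every such probe set lay on the same side of 0. Psmb1 was the 1 gene with probe sets beyond 0.32 on the log2 scale in both directions. In 4 members the brightest probe set was of a type that can bind more than 1 transcript: Psma6, Psmc2, Psmd11 and Psme4.

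Genes that work beside the proteasome were examined from 4 lists. In the MHC class I pathway, which loads proteasome products onto class I molecules, 5 of 12 detected genes had a log2 ratio of 0.32 or above and 0 one of -0.32 or below, beside 22.1% and 26.4% of all detected genes, and the median was 0.12. Tapbpl, a peptide editor, read 2013 in DX5- and 865 in DX5+ cells (2.33-fold). Erap1, which trims peptides in the endoplasmic reticulum, read 708 and 387 (1.83-fold). H2-M3, a non-classical class I gene, was 1.54-fold higher and Tapbp, the tapasin of the loading complex, 1.32-fold higher. The probe sets of the classical genes H2-K1 and H2-D1 and of the light chain B2m read nearly equal, with log2 ratios of -0.074, -0.054 and 0.014. Those of H2-K1 and H2-D1 can bind several transcripts, so these readings may not be of the named genes alone.

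The peptide transporter genes Tap1 and Tap2 neighbour the immunoproteasome genes in the MHC region, where RefSeq orders them Psmb9, Tap1, Psmb8, Tap2. Along this order the log2 ratios were 0.27, -0.053, 0.38 and 0.37. Tap1 read 1855 in DX5- and 1925 in DX5+ cells, and Tap2 read 1552 and 1201. Tap1 was therefore nearly equal between neighbours that read 1.20-fold and 1.30-fold higher.

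Of 18 detected proteasome partners 13 were higher and 5 lower in DX5- cells, 3 of them at 0.32 or above on the log2 scale and 0 at -0.32 or below, with a median of 0.16. Of all detected genes 47.5% were higher and 22.1% lay at 0.32 or above, so the share of partners past that threshold, 16.7%, was not above that of genes at large. Without probe sets that can bind several transcripts 12 partners were higher and 6 lower, with a median of 0.14. Rad23b, a shuttle of ubiquitin-tagged proteins, read 4663 in DX5- and 2543 in DX5+ cells (1.83-fold) on a probe set of that type. Akirin2, which takes proteasomes into the nucleus, was 1.38-fold higher. Pomp, the chaperone that completes the core particle, read 5285 and 3961 (1.33-fold). Usp14, a deubiquitinase bound to the regulatory particle, was 1.23-fold higher. With spike-in scaling the medians were 0.34 for the class I list and 0.38 for the partners, beside 0.19 for all detected genes.

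Regulators of proteasome and class I genes went both ways, with 7 of 13 detected genes higher and 6 lower (median 0.11), beside 47.5% and 51.2% of all detected genes. Nlrc5, the transactivator of class I genes, read 2659 in DX5- and 1205 in DX5+ cells (2.21-fold). Irf8, an interferon regulatory factor, read 10206 and 26592, 2.61-fold lower. Jak2, a kinase of the interferon gamma receptor, was 1.57-fold and Irf2 1.35-fold higher. Of the 5 detected ubiquitin genes 1 had a log2 ratio beyond 0.32 in size, Uba6, a ubiquitin-activating enzyme, at 829 against 1231. Among all detected genes 22.1% lay at 0.32 or above and 26.4% at -0.32 or below. Ube2d3, Ube2k and Ube2n, ubiquitin-conjugating enzymes, were within 1.05-fold.

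**Figure D4:**
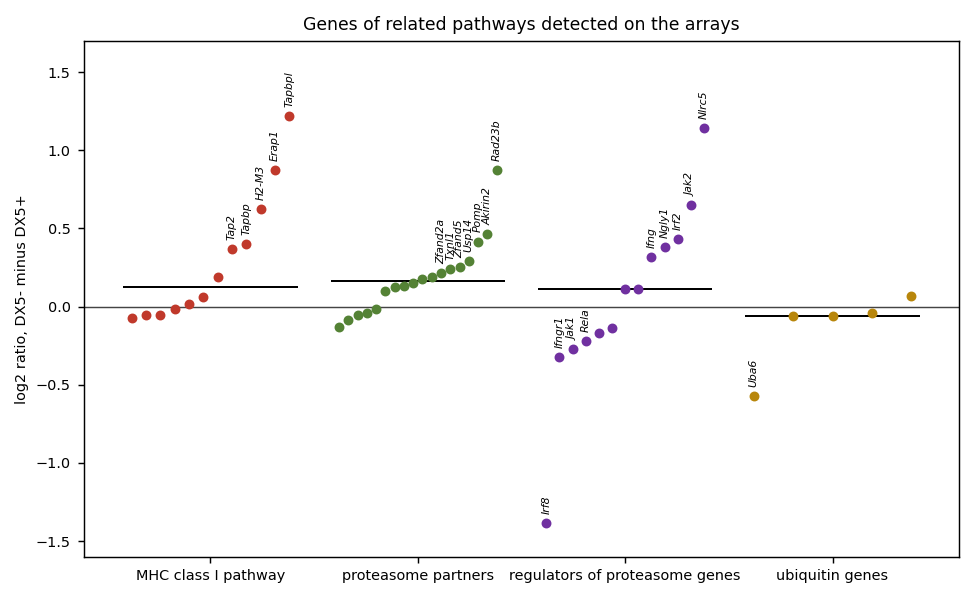
Log2 ratio (DX5- minus DX5+) of detected genes in 4 lists that work with the proteasome, 1 point per gene in rising order, with list medians as black bars and names for genes beyond 0.2 in either direction. Tapbpl, Nlrc5, Rad23b and Erap1 sit highest and Irf8 lowest, at -1.38.

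The identity of the cells was checked against marker lists. All 11 NK markers were above the limits on both arrays, with a summed intensity of 162010 in DX5- cells and 164301 in DX5+ cells. Single NK markers lay further apart, with Prf1 2.89-fold lower and Klre1 and Klrd1 1.83-fold and 1.71-fold higher in DX5- cells. Of 8 T cell markers on the array 7 were detected. Among them 4 were at least 2-fold higher in DX5- cells, Cd3g, Cd3e, Cd3d and Cd8a, against 3.76% of all detected genes. Cd5 was 1.49-fold higher, Cd28 and Cd8b1 were lower in DX5- cells, and Cd4 was below both limits. The list summed to 25084 against 10681 units, of which Cd3g made up 14036 and 1072. Of 13 macrophage markers 5 were detected and all 5 were lower in DX5- cells, beside 51.2% of all detected genes. The macrophage list summed to 1392 and 5839, and the Kupffer cell genes Clec4f, Timd4, C1qa, C1qb and Vsig4 were below both limits. All 7 platelet markers were at least 2-fold lower in DX5- cells (1152 against 5883 units), beside 5.66% of all detected genes. The 5 neutrophil markers, all detected, summed to 3680 in DX5- and 9500 in DX5+ cells. The 5 dendritic cell markers (4 detected) summed to 6446 and 5232, of which Itgax made up most, while the other 3 were lower in DX5- cells. The 4 B cell markers (3 detected) summed to 1001 and 706, and the 6 hepatocyte markers (5 detected) to 1449 and 2311. The immunoproteasome genes were thus higher on the array on which 5 of the 7 detected T cell markers were higher. Detected macrophage, neutrophil and platelet markers were lower on that array. The part of these cells in the result was not tested. In sorted bulk RNA, fewer cells of a type and less RNA per cell cannot be told apart.

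**Figure D5:**
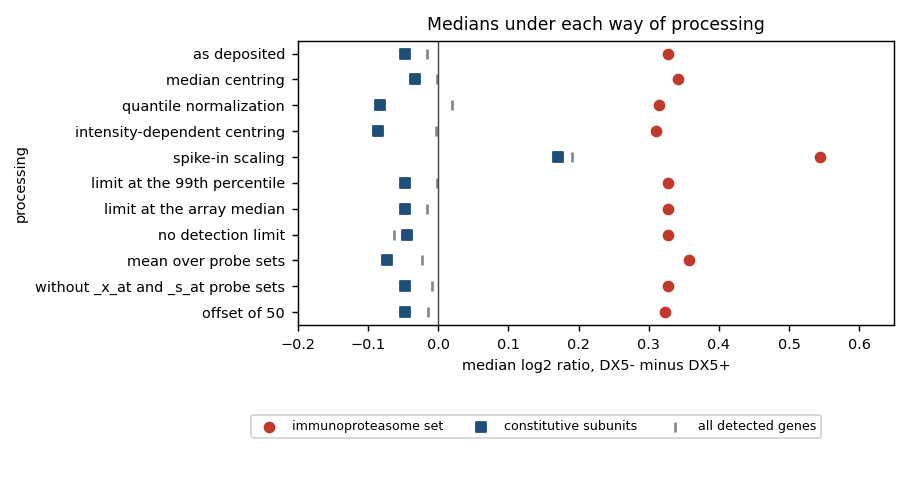
Median log2 ratio (DX5- minus DX5+) of the immunoproteasome set, the constitutive subunits and all detected genes as deposited and under 10 other ways of processing. The immunoproteasome median stays between 0.31 and 0.54, and spike-in scaling moves all 3 medians up together, the constitutive one from -0.047 to 0.17.

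The distance between the medians of both groups was compared across ways of processing. It ranged from 0.37 to 0.43 on the log2 scale over 10 alternatives, as the plot of medians by processing shows. Centring by the median and spike-in scaling move both medians alike, so they could not change this distance. Limits at the 99th percentile and at the array median left the detected members, and so the distance, the same. The log2 ratios of Psmb8, Psmb9, Psmb10 and Psme1 were above 0 in all 40 values these alternatives gave. Much of this count was fixed in advance. Changing the limit gave the deposited values again, and Psmb9, Psmb10 and Psme1 have 1 probe set each. An offset cannot reverse a sign, and spike-in scaling moved every ratio upward. Quantile normalization and intensity-dependent centring could have lowered these ratios past 0. The lowest value was 0.21, for Psme1 under quantile normalization.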

How the data were processed

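Total RNA of the sorted cells was labelled with biotin and hybridised to Affymetrix arrays, per the labels' protocols. The deposited values were linear intensities per probe set, made by the authors with MAS5 per the submitters' processing notes. The sources used here give neither its version nor its settings. The table held 45101 probe sets; platform annotation gave 34958 of them 1 symbol and 932 several, and 9211 are unnamed here. By gene identifier 34754 matched RefSeq GRCm38.p6, with 0 renamed. Intensities were taken to log2 without offset or further scaling. The detection limit per array was the 95th percentile of 149 probe sets of olfactory, vomeronasal and taste receptor, keratin-associated, lens crystallin and opsin genes. A gene below 1 limit entered at that limit, and a gene below both was left out. After trimming 2% at each end the mean intensity was 500.1 and 500.2, so scaling by MAS5 gave both arrays the same target. Alternatives changed the scaling, limit, probe set or offset. With 1 array per population no test was possible. Steps were tested on simulated data. Members and lists were chosen with earlier results of these data known. Named genes were the immunoproteasome set, its constitutive counterparts and the extremes of each role. Members past 1.5-fold, below a limit or with opposed probe sets were also named, as were the 4 largest ratios per related list. Other members, genes of these lists and markers were named after their values were seen. Analyses used Python 3.11.15 with pandas 2.3.3, numpy 2.4.6 and statsmodels 0.14.6.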

Additional observations from a re-analysis of the deposited data

How the results depend on the processing

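No paired analysis was possible because each population had 1 array, and for the same reason no replicate could be left out. Of 460 member values recomputed under 10 alternatives, 453 moved by less than the SD between probe sets of a gene and kept their side of 1.5-fold. Another 4 moved by more without crossing 1.5-fold (Psme4 under 2 alternatives, Psmd7 and Psmg2 with the mean over probe sets), 2 fell short of 1.5-fold (Psmd13), 1 came past it (Psmb8) and 0 members past 1.5-fold changed direction. Much of the count of 453 was fixed in advance. Alternatives that changed only the limit gave the deposited values again, and the 22 members with 1 probe set could not change with the choice of probe set. Members that changed sign under spike-in scaling still count among the 453, because its shift of 0.22 was just under the SD of 0.23. Scaling to the 18 spike-in controls shifted all genes upward by construction. It gave 34 members higher and 12 lower, 3 at least 1.5-fold higher (Psmb8, at 0.60, in addition) and 1 at least 1.5-fold lower, and median log2 ratios of 0.18 for all members, 0.54 for the immunoproteasome set, 0.17 for constitutive subunits and for the constitutive catalytic subunits, -0.051 for the alpha ring, 0.24 for structural beta subunits, 0.15 for ATPases, 0.18 for other regulatory particle subunits, 0.31 for regulatory particle assembly factors, 0.10 for other activators and 0.16 for core assembly factors. It made 69.7% of all genes past 1.5-fold higher in DX5- cells, against 43.2% as deposited. Quantile normalization gave medians of -0.036 for structural beta subunits and 0.010 for core assembly factors, and intensity-dependent centring -0.016 for the former; the cause was not tested. With the mean over probe sets 1 member was at least 1.5-fold lower and the median of other activators was 0.058; without probe sets that can bind several transcripts that median was 0.16, since Psme4 was then read from another probe set. With no detection limit 2 of the 4 immunoproteasome genes exceeded every constitutive subunit, because undetected Psma8 then entered. Signal over background limits Psmc3ip and the dimmer probe sets of several members, among them Psmb1, Psmd11 and Psmd13.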
